A study of Homo sapiens with 18 samples.

Results

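AML874 was compared with the solvent control DMSO after 8 h in OCI-AML1 cells, an established human line of acute myeloid leukaemia. The comparison rests on 6 of the 18 libraries of the series, 3 with AML874 and 3 with DMSO, which were chosen by the treatment and time in their labels and not by any measured value. The cells carry the label WT, come from blood and are 1 line, so all groups share that genotype. AML874 is a code name and the labels state no dose. The other 12 libraries hold 3 each of DMSO and AML874 at 24 h and of SEL120-34A, an inhibitor of the kinases CDK8 and CDK19, at 8 h and 24 h. The labels do not say whether the 3 libraries of a group came from separate cultures, so the p-values reflect how much these libraries varied, which may be technical.

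The title of the series concerns inhibition of the Mediator kinases and sensitivity to venetoclax, an inhibitor of BCL2. Mediator is the complex that carries signals from transcription factors bound at enhancers to RNA polymerase II at the promoter. CDK8 or CDK19 sits with cyclin C, MED12 and MED13 in a module that binds Mediator reversibly, phosphorylates transcription factors and parts of the transcription machinery, and can raise or lower the output of a gene. In myeloid leukaemia cells these kinases are known for their effect on STAT signalling and on genes under large enhancers, many of which define the lineage.

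Levels are given in CPM, the usual measure of a gene's counts relative to the size of its library, after library sizes were scaled to each other, as the mean ± standard deviation (SD) of n = 3 libraries or as single libraries in the order of replicates 1, 2 and 3. Changes are log2 fold changes of AML874 over DMSO with their standard error (SE), and a gene is said to have risen or fallen where its Benjamini-Hochberg adjusted p in edgeR's quasi-likelihood test was under 0.05. The 6 libraries held 98975944 to 139957031 counts in genes, and a count of 0 allows up to 3 counts, or 0.0214 to 0.0303 CPM, at 95% confidence for counting error only. Of 12 genes that mark myeloid leukaemia cells, 11 were measured, with summed levels of 1346 to 1353 CPM with DMSO and 1233 to 1235 CPM with AML874, and CSF2RA was at 0 counts. Reads with several alignments were not counted, so the 0 of CSF2RA does not show that this gene is silent. Marker genes of B cells summed to 1.02 to 1.91 CPM, of T and NK cells to 8.01 to 8.96 CPM, of erythroid cells to 6.04 to 7.33 CPM, all but a trace of it EPOR, and of megakaryocytes to 1.20 to 1.50 CPM. At 0 in all 6 libraries were 2 of the 8 B cell genes, 2 of 9, 4 of 8 and 1 of 6 of the others in that order. The 8 genes of stroma and endothelium summed to 57.6 to 75.5 CPM, which was mainly PECAM1, a gene that myeloid cells also express. One DMSO library, replicate 3, stood apart on the first axis of variation within groups, at 5.05 against -1.22 and -3.83 for replicates 1 and 2, while the AML874 libraries lay between -0.40 and 0.57. Where its removal ended a call of a gene described here or moved a change or count by over 1.5 times, the value without it is given.

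Of 20920 genes tested, 39.6% were called, 19.7% higher and 19.9% lower. Most changes were small: the median called gene moved 1.19-fold, and 3.56% of the genes tested rose and 0.688% fell by at least 2-fold. In 95.7% of the called genes the 3 libraries of one group all lay above those of the other. The direction went with the level of the gene. Among the 8008 genes under 1 CPM, 13.1% rose and 3.90% fell, and they held 651 of the 745 rises and 116 of the 144 falls of at least 2-fold. Under 0.1 CPM all 223 genes called higher and all 38 called lower moved at least 2-fold, so only large changes were called there. That weak genes hold most large changes is therefore in part built into the calls. Weak genes can also pass the filter on low counts through a group where they are high, so their direction is in part built in too. Among the 2473 genes at 100 CPM or more, 17.2% rose and 43.3% fell, and of 509 genes at 300 CPM or more 12.0% rose and 50.9% fell. At 3 to 10 CPM 28.1% rose and 21.7% fell, at 10 to 30 CPM 26.7% and 27.5%, at 30 to 100 CPM 24.0% and 33.0% and at 100 to 300 CPM 18.6% and 41.3%, and each count in a gene list is to be read against the shares at the level of its median member. The split depended on the scaling of the libraries: 49.8% of the calls were higher with TMM scaling and 63.5% with library totals alone.

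**Figure D1:**
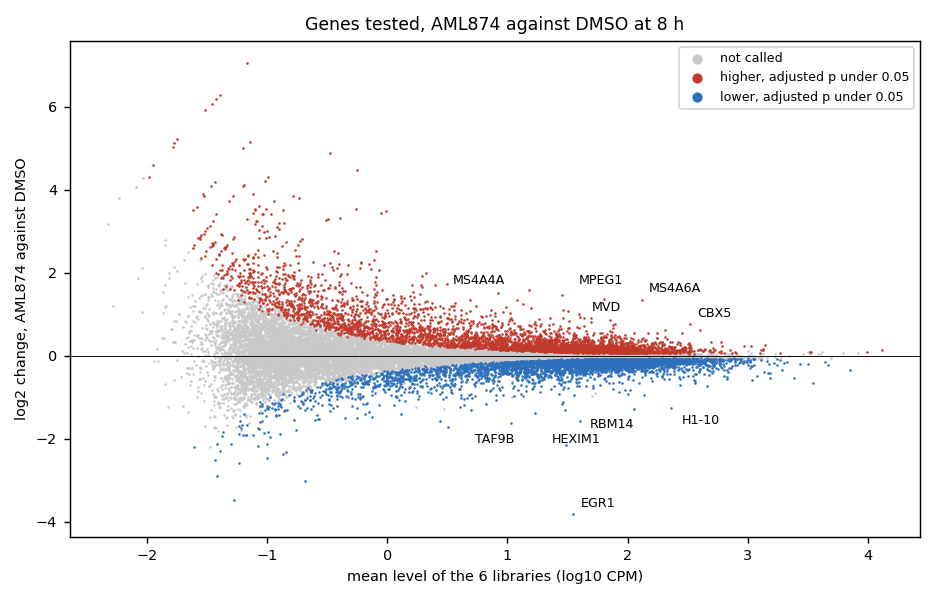
Log2 change of AML874 against DMSO at 8 h (vertical axis) against the mean level of the 6 libraries on a log10 scale (horizontal axis, CPM), 1 point per gene, coloured by call. The labelled EGR1 is the lowest point, at -3.81, and large rises lie mainly at low levels. Under 0.1 CPM every called change is at least 2-fold.

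**Figure D2:**
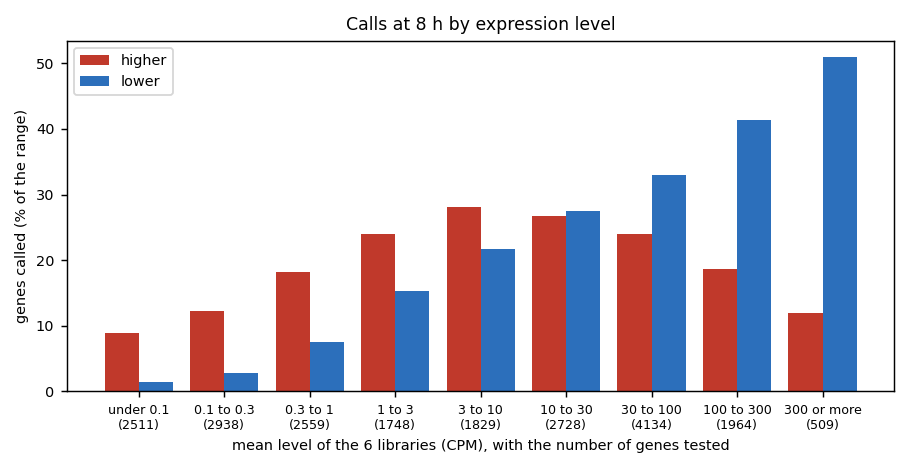
Share of genes called higher (red) and lower (blue) in 9 ranges of mean level, with the number of genes tested in each range under its name. The share lower grows from 1.51% in the lowest range to 50.9% in the highest, while the share higher is largest, 28.1%, between 3 and 10 CPM.

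The largest fall of any gene named here was that of EGR1 (ENSG00000120738.8, GRCh38 chromosome 5, 138465490 to 138469315), a zinc finger transcription factor that growth factor signals switch on within minutes. EGR1 was at 54.6, 53.7 and 89.3 CPM with DMSO and 4.39, 4.93 and 4.81 CPM with AML874. All AML874 libraries lay far below all DMSO libraries, and DMSO replicate 3 was the highest. The log2 change was -3.81 ± 0.25, or 14.0-fold lower (edgeR adjusted p = 4.14e-08), and -3.54 without DMSO replicate 3. EGR1 responds to serum response factor, which binds CArG boxes, so the bases before its start site are shown because the gene with the largest fall holds 2 of these boxes in the 250 bases upstream. Such a box, the consensus CC, then 6 bases of A or T, then GG, was found in 1.14% of 27305 promoter windows. Each window was searched over the 250 bases before the start. The sequence is from RefSeq (GRCh38.p14, chr5:138465229-138465478, plus strand), and capitals mark the boxes:
EGR1 upstream: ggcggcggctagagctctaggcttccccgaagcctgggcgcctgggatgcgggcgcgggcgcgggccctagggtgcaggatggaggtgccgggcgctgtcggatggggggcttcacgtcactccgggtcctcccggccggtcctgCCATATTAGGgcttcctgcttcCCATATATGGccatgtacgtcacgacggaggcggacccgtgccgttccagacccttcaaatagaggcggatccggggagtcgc
SRF, which encodes serum response factor and has 2 boxes in its own window, had a log2 change of 0.045 ± 0.031 that did not pass the test. Of 121 tested genes with a box 29.8% rose and 28.9% fell, against 23.2% and 25.8% of 11911 genes without one, shares that were not tested against each other. Among 24 AP-1 and other immediate early genes with a window, SRF was the only one with a box. Of the 23 without a box in these 250 bases 12 fell and 1 rose.

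Some partners of EGR1 also moved. Of 6 EGR and NAB genes, EGR1 itself included, 4 fell and 0 rose, against 21.7% and 28.1% of genes at that level. The median was -0.39, or -0.65 without DMSO replicate 3, against 0.0023 for all genes tested. NAB2, a corepressor that EGR1 itself induces, fell by 0.56 ± 0.092 from 6.85 ± 0.133 to 4.65 ± 0.509 CPM, and NAB1 fell by 0.16 ± 0.036. EGR2 fell by 1.41 ± 0.35, or by 0.90 without DMSO replicate 3, from a level of only 0.375 ± 0.203 CPM, and EGR3 and EGR4, at 0.0414 ± 0.0285 and 0.358 ± 0.0715 CPM with DMSO, had no call. Among 32 AP-1 and other immediate early genes, 16 fell and 2 rose. Their median was -0.22, where 26.7% of genes at the level of the list's median member rose and 27.5% fell. IER2, a regulator induced by serum, was at 129, 129 and 139.6 CPM with DMSO and 85.8, 89.0 and 91.3 CPM with AML874. The groups did not overlap, and the change was -0.58 ± 0.036 (edgeR adjusted p = 1.79e-13).

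The fall was uneven within the AP-1 family and its neighbours. FOS fell by 0.65 ± 0.10, FOSB by 0.94 ± 0.15, JUNB by 0.42 ± 0.036 and JUND by 0.52 ± 0.063, whereas FOSL1, at 0.045 ± 0.056, and JUN, at -0.18 ± 0.15, did not pass the test. The Kruppel-like factor genes KLF2 and KLF6 fell by 0.73 ± 0.086 and 0.40 ± 0.047, and ZFP36 and ZFP36L2, which destabilise mRNAs with AU-rich elements, by 0.55 ± 0.082 and 0.37 ± 0.032. BTG1, an antiproliferative gene, fell by 0.44 ± 0.089. IER5 and CCN1, the 2 members that rose, changed by 0.18 ± 0.036 and 0.63 ± 0.12. Of 16 feedback genes of the ERK pathway, 10 fell and 2 rose, where 27.5% of genes at the level of the median member fell and 26.7% rose. ETV4, a transcription factor that ERK signalling induces, fell by 1.21 ± 0.23 to 0.301 ± 0.0966 CPM, ETV5 by 0.32 ± 0.057, the phosphatase gene DUSP6 by 0.23 ± 0.037 and the inhibitor genes SPRED1 and SPRY2 by 0.21 ± 0.042 and 0.17 ± 0.043. The other way went SPRED3, a relative of SPRED1 at a low level, which rose by 1.50 ± 0.23 from 0.214 ± 0.0966 to 0.629 ± 0.0796 CPM, and the adaptor gene SH2B3, which rose by 0.14 ± 0.029. The phosphatase genes DUSP1, DUSP2 and DUSP5 changed by 0.063, 0.018 and -0.042, none of them called.

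**Figure D3:**
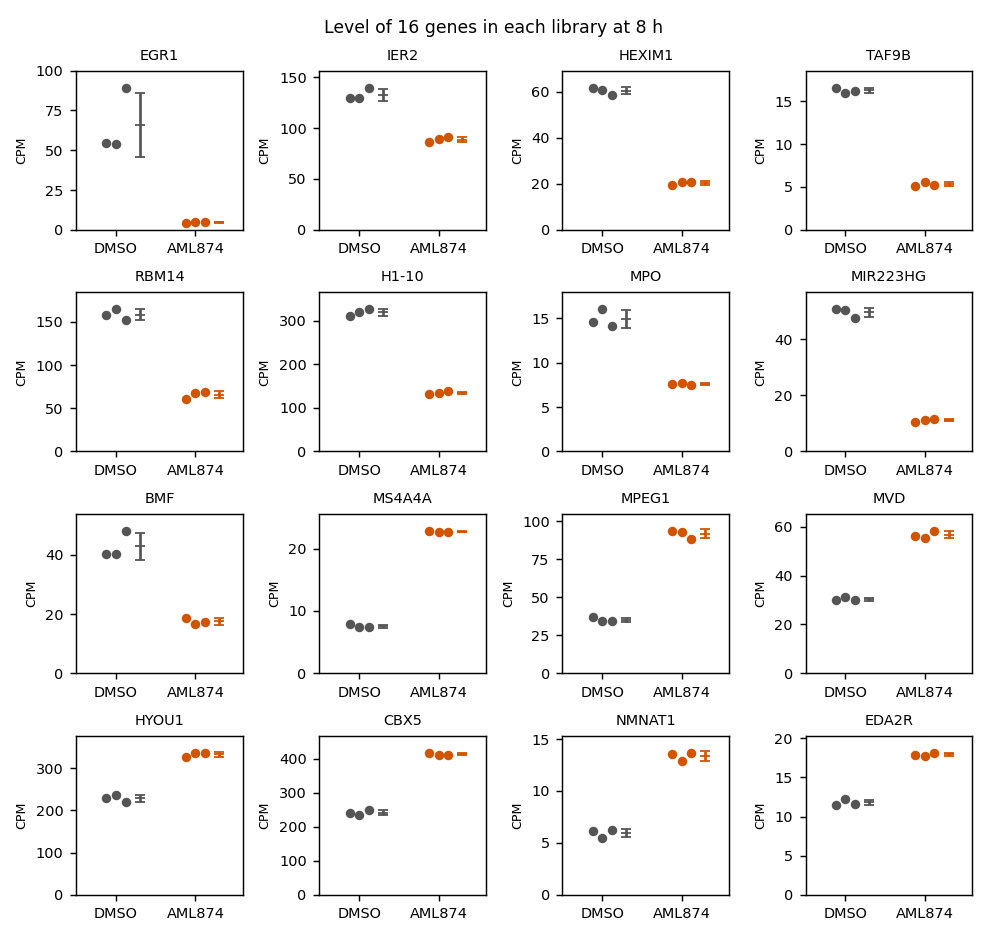
Level in CPM of 16 genes in each library at 8 h, in panels whose axes start at 0, with 3 DMSO points (grey), 3 AML874 points (orange) and a bar for the mean ± SD beside them. The 3 points of one treatment lie apart from the 3 of the other in every panel, and DMSO replicate 3 is the highest point for EGR1 and BMF.

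Genes that control the release of paused RNA polymerase II moved in opposite directions. HEXIM1, which with the 7SK RNA holds the elongation kinase P-TEFb inactive, was at 61.8, 60.9 and 58.7 CPM with DMSO and 19.4, 20.8 and 20.8 CPM with AML874. The groups were far apart, and the change was -1.57 ± 0.038, or 2.97-fold (edgeR adjusted p = 6.78e-27). HEXIM2, a paralogue that can take its place, was at 2.27 ± 0.280 CPM with DMSO and changed by 0.20 ± 0.11, without a call. CDK9 and CCNT1, the kinase and cyclin of P-TEFb, rose by 0.25 ± 0.032 and 0.12 ± 0.026, while MEPCE, which caps 7SK, fell by 0.44 ± 0.031 and LARP7, which binds it, changed by -0.066 ± 0.029. The BET readers of acetylated histones BRD2 and BRD3 fell by 0.34 ± 0.023 and 0.16 ± 0.027. In the super elongation complex and pausing factors 5 of 22 rose and 4 fell, against 24.0% and 33.0% of genes at that level. With library totals alone 2 fell. NELFCD, a subunit of the negative elongation factor, fell by 0.44 ± 0.029 while NELFE rose by 0.18 ± 0.029.

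The kinase module itself changed little. CDK8 was at 36.7, 36.9 and 37.8 CPM with DMSO and 36.8, 37.2 and 38.1 CPM with AML874, and CDK19 at 55.7, 55.4 and 62.8 CPM with DMSO and 58.6, 57.2 and 56.7 CPM with AML874. In each gene the libraries of the groups overlapped, and the changes were 0.009 ± 0.033 and -0.011 ± 0.051. CCNC and MED12 changed by -0.06 ± 0.029 and -0.022 ± 0.033, and CCNC was called without AML874 replicate 1 (edgeR adjusted p = 0.0144). MED13 and MED13L were called at -0.077 ± 0.03 and 0.14 ± 0.04, but both calls were lost under alternatives (edgeR adjusted p of 0.470 for MED13 with library totals alone, 0.119 without AML874 replicate 3 and 0.101 without DMSO replicate 3, and of 0.0648 to 0.0893 for MED13L without replicate 1 or 2 of either group). Of 26 core Mediator subunits 7 rose and 3 fell, against 24.0% and 33.0% of genes at that level. When any 1 of the 6 libraries was left out, 1 to 4 of the subunits rose. None of them moved by more than MED31, at 0.18 ± 0.062, or MED19, at 0.18 ± 0.057, whose calls were lost without AML874 replicate 3 or DMSO replicate 3, and for MED31 also without AML874 replicate 1 or DMSO replicate 2 and with unstranded counts, which gave 0.012.

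TFIID, the factor that recognises core promoters, had 1 subunit gene far from the rest. TAF9B (ENSG00000187325.5, GRCh38 chromosome X, 78129748 to 78139706), a paralogue of TAF9 that also joins TFIID, was at 16.6, 16.0 and 16.2 CPM with DMSO and 5.12, 5.55 and 5.21 CPM with AML874. The 2 groups were far apart and the change was -1.62 ± 0.057, or 3.07-fold (edgeR adjusted p = 5.78e-22). Unstranded counts, which add reads of the opposite strand, gave -0.31. On that strand PGK1, a glycolysis gene at a far higher level, ends next to TAF9B, and the strand-specific counts are the ones given here. TAF9 rose by 0.15 ± 0.031. Of the 16 TFIID genes 7 fell and 2 rose, or 5 with library totals alone, against 33.0% and 24.0% of genes at that level. Among the falls were TAF5 by 0.54 ± 0.04, TAF7 by 0.24 ± 0.028 and TAF13 by 0.19 ± 0.049, and among the rises TAF12 by 0.29 ± 0.042. TBP, the subunit that binds the TATA box, changed by 0.067 ± 0.032.

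Splicing factor genes mostly fell. Of 37 genes of SR proteins, heterogeneous nuclear ribonucleoproteins (hnRNPs) and splicing kinases 27 fell and 4 rose, with a median of -0.17. These are abundant transcripts, and in the range of level of the list's median member 41.3% of all genes tested fell and 18.6% rose. RBM14 (ENSG00000239306.4, GRCh38 chromosome 11, 66616582 to 66627347), a coactivator and splicing regulator, was at 158, 164 and 152 CPM with DMSO and 61.2, 67.3 and 68.5 CPM with AML874. No library of one group came near the other, and the change was -1.27 ± 0.035 (edgeR adjusted p = 1.83e-22). HNRNPD, which binds AU-rich mRNAs, was at 586, 583 and 549 CPM with DMSO and 340.2, 346 and 356 CPM with AML874, a change of -0.72 ± 0.026. Its neighbour on chromosome 4, HNRNPDL, fell by 0.65 ± 0.025, and HNRNPH3 by 0.69 ± 0.023. HNRNPA2B1 and HNRNPH1 fell by 0.54 ± 0.024 and 0.49 ± 0.026, TRA2A and TRA2B, which activate exons, by 0.62 ± 0.028 and 0.47 ± 0.028, and SRSF1 and SRSF2 by 0.49 ± 0.031 and 0.34 ± 0.036. The kinase genes CLK1, CLK3 and CLK4, which phosphorylate SR proteins, rose by 0.23 ± 0.03, 0.36 ± 0.029 and 0.29 ± 0.043, and SRSF5 rose by 0.092 ± 0.023. SRSF6, SRSF11, HNRNPF and HNRNPU changed by -0.038, 0.011, 0.0044 and -0.048, with no call.

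Of 10 polyadenylated histone genes 8 fell and 0 rose, where 41.3% of genes at that level fell and 18.6% rose. H1-10 (ENSG00000184897.6, GRCh38 chromosome 3, 129314771 to 129316277), a linker histone made outside S phase, was at 311, 321 and 327 CPM with DMSO and 132, 135 and 138 CPM with AML874. The change was -1.24 ± 0.03, with no overlap of the groups (edgeR adjusted p = 2.26e-26). The variant genes H2AZ1 and H2AX fell by 0.46 ± 0.03 and 0.38 ± 0.036. MACROH2A2 and CENPA, at -0.11 and -0.083, had no call. CBX5, which encodes heterochromatin protein 1 alpha, went the other way, at 241, 234 and 249.9 CPM with DMSO and 417, 411 and 410.2 CPM with AML874, a rise of 0.77 ± 0.025 and the largest among abundant genes after MS4A6A. HNRNPA1, its neighbour on chromosome 12, fell by 0.58 ± 0.025, but this gene has many processed copies, and reads with several alignments were not counted. Among enzymes of DNA methylation UHRF1, which brings DNMT1 to newly made DNA, fell by 0.44 ± 0.034, DNMT1 by 0.10 ± 0.024 and TET3 by 0.12 ± 0.027.

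Among genes that are not protein coding, counting those that reached 5 CPM under one treatment and whose libraries did not overlap, the largest fall was that of MIR223HG (ENSG00000274536.7, GRCh38 chromosome X, 66015461 to 66020422), the host transcript of the myeloid microRNA miR-223. It was at 50.7, 50.3 and 47.7 CPM with DMSO and 10.7, 11.3 and 11.6 CPM with AML874. The AML874 libraries kept about the same low level and did not overlap DMSO, with a change of -2.15 ± 0.042 or 4.44-fold (edgeR adjusted p = 2.82e-29). The mature microRNAs themselves were not measured, because libraries of polyadenylated RNA hold the host transcript and not the processed strands. Both strands of the hairpin are shown because this transcript is their source. They are from RefSeq (GRCh38.p14), capitals mark the seed, bases 2 to 8, and the 2 seeds differ:
hsa-miR-223-5p, chrX:66018895-66018916, plus strand: cGUGUAUUugacaagcugaguu
hsa-miR-223-3p, chrX:66018937-66018958, plus strand: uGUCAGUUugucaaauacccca

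Genes of the MS4A cluster rose together. This family encodes membrane proteins that cross the membrane 4 times, and several members are known from monocytes and macrophages. Of 17 MS4A genes with counts on file 8 passed the filter on low counts. Of these 8 rose and 0 fell, against 19.7% and 19.9% of all genes tested. All of them lie on chromosome 11 between 60056587 and 60417756. The cluster was singled out after its values were seen. MS4A6A was at 71.1, 74.7 and 74.0 CPM with DMSO and 187, 189 and 187 CPM with AML874. MS4A4A was at 7.84, 7.34 and 7.38 CPM with DMSO and 22.8, 22.6 and 22.7 CPM with AML874. In both genes every AML874 library stood at over 2-fold the level of every DMSO library. MS4A6A rose by 1.36 ± 0.028 (edgeR adjusted p = 5.23e-29) and MS4A4A by 1.60 ± 0.04 (edgeR adjusted p = 1.53e-26). MS4A7 and MS4A3 rose by 0.73 ± 0.07 and 0.54 ± 0.056, from 6.82 ± 0.148 and 9.33 ± 0.471 CPM. MS4A14, MS4A4E, MS4A2 and MS4A6E rose by 0.98 ± 0.19, 1.39 ± 0.32, 1.59 ± 0.50 and 1.29 ± 0.45, from 0.0486 to 0.332 CPM. The filter accepts libraries of any group, so weak genes such as MS4A2 and MS4A6E can pass it through treated libraries where they are high. The rises of such weak members are therefore in part built into the count. MS4A6E, MS4A7 and MS4A14 overlap on the same strand, and MS4A4E lies within MS4A4A on the other strand, so the counts of the weak members are uncertain. The call of MS4A6E was lost without AML874 replicate 1 or 2 or DMSO replicate 1 (edgeR adjusted p = 0.0529, 0.114 and 0.0885) and that of MS4A2 without AML874 replicate 2 (0.0537). Nearer the centromere on the same chromosome, MPEG1, which encodes the pore-forming perforin-2 of macrophages, was at 36.8, 34.4 and 34.5 CPM with DMSO and 93.5, 93.0 and 88.2 CPM with AML874. No libraries overlapped, and MPEG1 rose by 1.38 ± 0.035. Its neighbour on the opposite strand, DTX4, a ubiquitin ligase gene, rose by 1.00 ± 0.042.

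Other monocyte and macrophage genes went both ways. Of 35 on the list 9 rose and 10 fell, near the 28.1% and 21.7% of all genes at the level of the median member. The lectin receptor CLEC7A rose by 1.24 ± 0.19, the matrix gene VCAN by 0.81 ± 0.16 and CYBB, the catalytic subunit of the phagocyte oxidase, by 0.49 ± 0.071. ITGAX, the integrin CD11c, was at 6.29, 5.19 and 7.44 CPM with DMSO and 3.28, 3.25 and 3.25 CPM with AML874. Its groups did not overlap, and it fell by 0.95 ± 0.14. FCGR1A, the high-affinity IgG receptor, fell by 0.91 ± 0.096, the lectin CLEC5A by 0.95 ± 0.12, and CSF1R by 0.25 ± 0.056. LYZ, which encodes lysozyme, was at 349 ± 3.73 and 349 ± 0.858 CPM. The monocyte genes CD14, S100A8, S100A9 and FPR1 were near the limit of detection, at means of 0.0205 ± 0.0177, 0.0499 ± 0.0306, 0.218 ± 0.0843 and 0.0725 ± 0.0182 CPM with DMSO. In these bulk libraries a smaller number of cells of a type cannot be told apart from less RNA per cell.

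Granule protein genes, which mark the promyelocyte stage, fell in 6 of 11 and rose in 0. At the level of the median member 27.5% of genes fell and 26.7% rose. MPO, the myeloperoxidase gene, was at 14.6, 16.0 and 14.2 CPM with DMSO and 7.55, 7.72 and 7.50 CPM with AML874, with a change of -0.98 ± 0.064 and no overlap. AZU1 fell by 0.56 ± 0.14, CLEC11A by 0.27 ± 0.027 and SRGN, the proteoglycan that packs granule proteins, by 0.22 ± 0.038. PRTN3, CTSG and PRSS57 changed by 0.17, 0.078 and 0.025, with no call. The enzyme genes FUT7 and MMP25, known from granulocytes, fell by 1.01 ± 0.079 and 0.96 ± 0.06.

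Of 44 haematopoietic transcription factors 16 fell and 8 rose, near the shares of all genes at the level of the median member, 33% and 24%. NFE2, a factor of megakaryocytes and myeloid cells, fell the most, by 1.03 ± 0.08, and ID2, an inhibitor of E proteins, by 0.59 ± 0.049. The CEBP family of granulocyte factors fell in 3 members, CEBPE by 0.40 ± 0.04, CEBPA by 0.35 ± 0.056 and CEBPD by 0.29 ± 0.043, and RUNX1 and SPI1 fell by 0.26 ± 0.025 and 0.22 ± 0.031. ETS2 was at 140.5, 142 and 142 CPM with DMSO and 208, 209 and 209 CPM with AML874, values that hardly varied within a group, and it rose by 0.56 ± 0.024. BCL11A, MEF2C and IRF8, factors of lymphoid, dendritic and monocytic lineages, rose by 0.47 ± 0.029, 0.43 ± 0.035 and 0.40 ± 0.025. The stem cell genes HOXA9 and MEIS1 changed by -0.083 and 0.051, without a call. Among 16 progenitor and leukaemia surface genes 7 rose and 3 fell, or 5 without DMSO replicate 2. At the level of the median member 24.0% of genes rose and 33.0% fell. CD34 was at 0.906, 0.830 and 0.993 CPM with DMSO and 1.83, 1.77 and 1.38 CPM with AML874. The receptor gene KIT was at 0.302, 0.226 and 0.244 CPM with DMSO and 0.758, 0.567 and 0.507 CPM with AML874. In both all AML874 libraries were above DMSO, at low levels, with rises of 0.88 ± 0.13 and 1.27 ± 0.25. CD38, an NAD-consuming surface enzyme, rose by 0.73 ± 0.032 from 56.4 ± 3.69 CPM, while FLT3 and IL1RAP fell by 0.34 ± 0.056 and 0.33 ± 0.046.

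Of 16 genes of MHC class II presentation, which show peptides to helper T cells, 9 rose and 0 fell, with a median of 0.19, where 26.7% of genes at the level of the median member rose and 27.5% fell. CIITA, the master regulator of the class, was at 60.2, 60.7 and 65.5 CPM with DMSO and 82.8, 89.8 and 84.0 CPM with AML874. Its groups did not overlap, and it rose by 0.46 ± 0.037 (edgeR adjusted p = 5.75e-11). RFX5, which binds the class II promoters, rose by 0.31 ± 0.024, HLA-DMB and HLA-DMA, which load peptide, by 0.48 ± 0.082 and 0.33 ± 0.048, and HLA-DRA by 0.14 ± 0.026. CD74, the invariant chain, was at 1034 ± 32.9 and 1077 ± 34.0 CPM, without a call. Of 18 class I genes 6 rose and 8 fell, or 4 fell with library totals alone, where 18.6% of genes at that level rose and 41.3% fell, and the classes were not tested against each other. TAP1 and TAP2, the peptide transporter, rose by 0.34 ± 0.031 and 0.27 ± 0.033, while B2M, the light chain of class I molecules, fell by 0.21 ± 0.025. HLA genes resemble each other, and reads with several alignments were not counted.

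Of 44 interferon-stimulated genes 13 rose, 8 without DMSO replicate 3, and 11 fell, near the shares at that level, 28.1% and 21.7%. RSAD2, which encodes viperin, rose by 1.73 ± 0.092 from 1.46 ± 0.168 CPM, and TRIM22 by 0.38 ± 0.028, whereas IRF7 fell by 0.61 ± 0.084, IFI35 by 0.75 ± 0.066 and ISG15 by 0.34 ± 0.061. Among cytokine genes and NF-kappaB targets 8 of 28 fell and 3 rose, 1 without replicate 2 or 3 of AML874 or replicate 1 or 2 of DMSO, and 27.5% of all genes at that level fell and 26.7% rose. The chemokine gene CXCL16 fell by 0.45 ± 0.066 and PLAUR by 0.43 ± 0.083, while RELA, NFKB2 and CCL5 changed by -0.016, 0.09 and -0.062, with no call. STAT5 targets and cytokine feedback genes fell in 9 of 19, or 4 with library totals alone, against 33.0% of genes at that level. CSF2RB, the shared beta chain of cytokine receptors, fell by 0.30 ± 0.029, and CCND3 by 0.30 ± 0.036, while CISH, a direct STAT5 target, changed by -0.039 ± 0.027. TASL, an adaptor of toll-like receptor signalling on lysosomes, was at 180.1, 176 and 178 CPM with DMSO and 96.3, 91.2 and 92.5 CPM with AML874, a change of -0.93 ± 0.046 with no overlap. In the TGF-beta pathway 9 of 17 fell and 2 rose, where 27.5% of genes at that level fell and 26.7% rose. SMAD3 and ID1 rose by 0.22 ± 0.033 and 0.14 ± 0.055, and among the falls were TGFB1 by 0.52 ± 0.03, TGIF1 by 0.63 ± 0.043, SMAD6 by 0.53 ± 0.041 and the receptor TGFBR2 by 0.39 ± 0.033.

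DNA replication genes fell by small amounts and in many members. Of 44 genes 28 fell and 4 rose, the median being -0.13, where 33% of genes at the level of the median member fell and 24% rose. RRM2, the regulated subunit of ribonucleotide reductase, was at 434, 431 and 434 CPM with DMSO and 285, 285 and 289 CPM with AML874, a change of -0.60 ± 0.022 with no overlap (edgeR adjusted p = 3.48e-21). E2F1 and E2F2, activators of S phase genes, fell by 0.45 ± 0.04 and 0.55 ± 0.033, CCNE2 by 0.47 ± 0.04, POLA1, which encodes the catalytic subunit of DNA polymerase alpha, by 0.38 ± 0.032, and the checkpoint gene CLSPN by 0.36 ± 0.043. The helicase genes MCM2 to MCM7 all fell, by 0.13 ± 0.026 for MCM3 up to 0.23 ± 0.024 for MCM4. GINS4 and POLD1 rose by 0.22 ± 0.031 and 0.14 ± 0.024. Of 30 genes of mitosis 12 fell and 5 rose, near the 41.3% and 18.6% of all genes at that level. MKI67 and CDK1 fell by 0.14 ± 0.028 and 0.19 ± 0.027, while BIRC5, CDC20 and UBE2C rose by 0.24 ± 0.029, 0.20 ± 0.046 and 0.19 ± 0.044. The CDK inhibitor genes CDKN2D, CDKN1A and CDKN2C fell by 0.72 ± 0.059, 0.45 ± 0.12 and 0.36 ± 0.031, and CDKN1B changed by 0.069 ± 0.036.

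E2F factors bind the promoters of many replication genes, and the stretches around matches are shown for the 4 members with matches that fell the most. The letters TTTCCCGC and TTTGGCGC, on either strand, were found in 1.96% of 27305 RefSeq windows and in 15 of the 37 replication genes with a window. All are from GRCh38.p14, and capitals mark the match, which can be the reverse complement of the letters:
E2F2, chr1:23531238-23531305, minus strand: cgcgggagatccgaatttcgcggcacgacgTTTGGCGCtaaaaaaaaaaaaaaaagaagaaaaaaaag
E2F1, chr20:33686386-33686435, minus strand: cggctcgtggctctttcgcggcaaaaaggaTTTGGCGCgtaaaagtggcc
UHRF1, chr19:4909457-4909500, plus strand: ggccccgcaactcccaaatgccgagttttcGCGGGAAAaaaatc
POLA1, chrX:24693751-24693818, plus strand: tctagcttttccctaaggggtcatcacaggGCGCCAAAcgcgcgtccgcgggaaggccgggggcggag
Of these 15 genes 11 fell and 0 rose, and of the other 22 replication genes 12 fell and 2 rose. Over all tested genes with a window, 28.97% of 359 with a match fell and 19.5% rose, against 25.7% and 23.4% of 11673 without one. RRM2 and CCNE2 had no match in the 250 bases before their start.

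Targets of p53 moved in both directions. Of 30 genes 17 rose and 8 fell, with a median of 0.13, where 24.0% of genes at that level rose and 33.0% fell. EDA2R, a receptor of the TNF family, was at 11.5, 12.2 and 11.7 CPM with DMSO and 17.9, 17.7 and 18.2 CPM with AML874, a rise of 0.60 ± 0.05 without overlap (edgeR adjusted p = 4.58e-12). TIGAR, a sugar phosphatase gene, rose by 0.49 ± 0.052, the DNA repair gene XPC by 0.47 ± 0.032, FDXR by 0.35 ± 0.037 and FAS by 0.32 ± 0.08. CDKN1A and MDM2, the classical targets, fell instead, by 0.45 ± 0.12 and 0.17 ± 0.036, and PPM1D, a phosphatase that limits p53, fell by 0.29 ± 0.038.

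The BCL2 family bears on venetoclax, which occupies the groove of BCL2. BCL2 was at 322, 315 and 329.7 CPM with DMSO and 361, 349 and 339.9 CPM with AML874. The AML874 libraries were slightly above, and the change was 0.12 ± 0.029 (edgeR adjusted p = 0.00112), or 0.079 without AML874 replicate 1. MCL1, another antiapoptotic member, fell by 0.17 ± 0.023 from 454 ± 9.04 to 405 ± 2.81 CPM. BCL2L1 fell by 0.12 ± 0.042, a call that was lost without AML874 replicate 2 or DMSO replicate 2 (edgeR adjusted p = 0.0509 and 0.0796) and with library totals alone (0.169), and BCL2A1 and BCL2L2, at 0.172 ± 0.0362 and 1.10 ± 0.281 CPM with DMSO, had no call, though BCL2A1 was called without AML874 replicate 3 (edgeR adjusted p = 0.0375). Of the effectors, BAX fell by 0.075 ± 0.025, without a call with library totals alone (edgeR adjusted p = 0.397), and BAK1 changed by 0.023 ± 0.041. Among the BH3-only genes BMF, which senses detachment and cytoskeletal stress, was at 40.3, 40.2 and 48.1 CPM with DMSO and 18.6, 16.6 and 17.2 CPM with AML874. Every AML874 library was below every DMSO library, and BMF fell by 1.29 ± 0.082 (edgeR adjusted p = 1.4e-08). PMAIP1, which encodes NOXA and neutralises MCL1, rose by 0.35 ± 0.066, and BAD by 0.16 ± 0.043, or 0.11 without a call from unstranded counts. BID fell by 0.17 ± 0.026 and BBC3, or PUMA, by 0.31 ± 0.096, the latter without a call when DMSO replicate 3 was left out (edgeR adjusted p = 0.056). BCL2L11, or BIM, changed by -0.057 ± 0.033. MYC was at 688, 679 and 677 CPM with DMSO and 566, 586 and 585 CPM with AML874, a fall of 0.23 ± 0.025. Of 13 genes of its network 9 fell, against 33.0% of genes at that level. Leading the falls, TXNIP, a brake on glucose uptake, fell by 0.92 ± 0.058 and MXI1 by 0.71 ± 0.19.

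Cholesterol synthesis genes rose. Of 27 genes of synthesis and uptake 13 rose and 0 fell, where 24.0% of genes at that level rose and 33.0% fell. The median of the 27 genes was 0.16, and 22 rose with library totals alone and 20 in a fit of only these 6 libraries. MVD, which decarboxylates mevalonate diphosphate, was at 29.8, 31.1 and 29.8 CPM with DMSO and 56.2, 55.6 and 58.3 CPM with AML874. The groups lay apart, and it rose by 0.91 ± 0.068 (edgeR adjusted p = 4.59e-08). HSD17B7 rose by 0.53 ± 0.053, STARD4, a sterol carrier gene, by 0.46 ± 0.12, LSS by 0.44 ± 0.066 and HMGCS1 by 0.40 ± 0.057. INSIG1, which retains the sterol regulator in the endoplasmic reticulum (ER), changed by 0.077 ± 0.069, with no call. Of the liver X receptor genes NR1H3 rose by 0.65 ± 0.076 and NR1H2 changed by 0.0018 ± 0.033, and among targets APOE rose by 1.19 ± 0.33 from 0.149 ± 0.0395 CPM while ABCA1 and ABCG1 changed by -0.0025 and -0.045.

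Chaperones of the ER rose as well. Of 23 genes 11 rose and 4 fell, or 2 fell without DMSO replicate 3, against 18.6% and 41.3% of genes at that level. HYOU1 was at 229, 236 and 220.3 CPM with DMSO and 327, 335 and 337 CPM with AML874, a rise of 0.54 ± 0.031 with no overlap (edgeR adjusted p = 4.36e-15). SDF2L1, MANF and DNAJB11 rose by 0.36 ± 0.052, 0.33 ± 0.031 and 0.27 ± 0.036, CALR and CANX, the calcium-binding chaperones of glycoproteins, by 0.27 ± 0.024 and 0.23 ± 0.022, and HSPA5, or BiP, by 0.14 ± 0.032, or 0.089 without DMSO replicate 3. Among sensors and factors of ER stress XBP1 fell by 0.11 ± 0.029, or 0.065 with library totals alone, and DDIT3 by 0.40 ± 0.11, or 0.25 without a call when DMSO replicate 3 was left out (edgeR adjusted p = 0.0911). EIF2AK3 fell by 0.14 ± 0.044, without a call with library totals alone or unstranded counts (edgeR adjusted p = 0.104 and 0.135), and ATF6 and ERN1 changed by 0.034 and 0.01. The ER stress element, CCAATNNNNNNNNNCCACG on either strand, was present in 0.08% of all windows, 22 of 27305, and in 6 of the 22 windows of this list. Stretches for 4 of these genes, among them the 1 that fell, are shown from RefSeq (GRCh38.p14) with the element in capitals:
CALR, chr19:12938359-12938432, plus strand: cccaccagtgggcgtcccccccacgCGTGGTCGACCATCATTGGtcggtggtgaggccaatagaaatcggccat
CANX, chr5:179698748-179698826, plus strand: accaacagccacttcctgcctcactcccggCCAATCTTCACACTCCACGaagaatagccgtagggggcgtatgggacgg
HSPA5, chr9:125241361-125241439, minus strand: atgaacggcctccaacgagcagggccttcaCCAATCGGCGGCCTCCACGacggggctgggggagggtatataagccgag
XBP1, chr22:28800573-28800651, minus strand: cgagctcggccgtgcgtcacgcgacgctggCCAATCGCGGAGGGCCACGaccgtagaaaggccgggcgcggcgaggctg
HSPA5, HSP90B1, CALR, CANX and CRELD2 rose and XBP1 fell. Of the 16 members without the element 6 rose and 3 fell. Over all tested genes with a window 8 of 14 with the element rose and 1 fell, and these 14 include the 6 list members. Of the 12018 genes without it 23.3% rose and 25.9% fell, and these shares were not tested against each other.

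Genes of the ATF4 response, amino acid synthesis and tRNA charging rose in 16 of 30, 10 without DMSO replicate 3, and fell in 6, 3 with library totals alone. Of all genes at that level 18.6% rose and 41.3% fell. ALDH1L2, a mitochondrial folate enzyme gene, rose by 0.49 ± 0.032, PSPH by 0.32 ± 0.039, SARS1 by 0.20 ± 0.027 and AARS1 by 0.16 ± 0.028, all with small effects. The amino acid carriers SLC1A5 and SLC38A2 fell instead, by 0.31 ± 0.031 and 0.36 ± 0.035, and ATF5 by 0.79 ± 0.048. ATF4 mRNA was at 401 ± 5.25 and 393 ± 12.3 CPM. The NAD genes rose in 7 of 13 and fell in 3, against 24.0% and 33.0% of genes at that level. NMNAT1, which makes NAD in the nucleus, was at 6.17, 5.48 and 6.19 CPM with DMSO and 13.5, 12.9 and 13.7 CPM with AML874, a rise of 1.17 ± 0.067 without overlap (edgeR adjusted p = 6.32e-16), while SIRT1 fell by 0.23 ± 0.03.

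Glycolysis transcripts were lower in 13 and higher in 2 of 23 cases, and their median was -0.22. At the level of the median member 41.3% of all genes fell and 18.6% rose. LDHA, which makes lactate, fell by 0.41 ± 0.067, the lactate exporter gene SLC16A3 by 0.44 ± 0.073, HK2 by 0.38 ± 0.081 and GAPDH by 0.22 ± 0.029, while PFKM and PFKL rose by 0.24 ± 0.04 and 0.21 ± 0.027. The median of 24 other targets of hypoxia-inducible factors was -0.41. Of these targets 7 fell and 0 rose, against 33.0% and 24.0% of genes at that level. These counts rested on single DMSO libraries: 5 fell, with a median of -0.22, without replicate 3, and 13 fell, with a median of -0.55, without replicate 2. The mean of the 24 genes was 4.62, 4.40 and 5.06 log2 CPM in the DMSO libraries and 4.26, 4.30 and 4.34 in the AML874 libraries, so the lowest DMSO library lay just above the AML874 range. BNIP3, a mitophagy receptor gene, was at 113, 96.6 and 153 CPM with DMSO and 67.3, 65.5 and 72.3 CPM with AML874, with DMSO replicate 3 the highest. PDK1, which inhibits pyruvate dehydrogenase, fell by 0.77 ± 0.13 and MXI1 by 0.71 ± 0.19, while VEGFA and CA9, at -0.19 and -1.67, had no call. Without DMSO replicate 3, 12 glycolysis genes fell, with a median of -0.20.

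Targets of NRF2, a transcription factor that responds to oxidants, fell in 14 of 19 and rose in 1, SLC7A11. The call of SLC7A11 was lost without replicate 1 of either group, AML874 replicate 2 or DMSO replicate 3. Of all genes at that level 33.0% fell and 24.0% rose. FTL, the ferritin light chain, fell by 0.40 ± 0.027, with processed copies elsewhere in the genome, GCLC by 0.30 ± 0.031, TKT by 0.25 ± 0.027 and TXNRD1 by 0.13 ± 0.026. Of 30 lysosome and autophagy genes 17 fell and 3 rose, or 6 with library totals alone, against 33.0% and 24.0% of genes at that level. GABARAPL1, an autophagosome gene, fell by 0.48 ± 0.067, the regulator TFEB by 0.29 ± 0.058 and SQSTM1 by 0.23 ± 0.027, while GAA, MCOLN1 and NPC1 rose by 0.39 ± 0.034, 0.37 ± 0.043 and 0.26 ± 0.063. Heat shock genes rose in 9 of 17, 5 without DMSO replicate 3, and fell in 4, against 12.0% and 50.9% of genes at that level. HSP90AA1 fell by 0.52 ± 0.027 and HSPB1 by 0.43 ± 0.046, while BAG3, DNAJB1 and HSF1 rose by 0.24 ± 0.035, 0.20 ± 0.031 and 0.12 ± 0.03.

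Genes for mitochondrial ribosomes and import rose in 13 of 32 and fell in 2, against 18.6% and 41.3% of genes at that level. The changes were small: MRPL4 rose by 0.23 ± 0.034 and MRPS27 by 0.21 ± 0.025. The count of rises was 7 without AML874 replicate 3 or DMSO replicate 3 and 23 with library totals alone, and that of falls ranged from 0 without DMSO replicate 2 to 4 without DMSO replicate 3, with 1 without AML874 replicate 2 or DMSO replicate 1. Of 46 cytosolic ribosomal protein genes 4 rose and 9 fell, against 12.0% and 50.9% of genes at that level. Among these 46 genes RPL22, at 0.23 ± 0.026, or 0.094 from RSEM counts, moved the most. With 1 library left out 2 or 3 rose and 7 to 21 fell, most falls without AML874 replicate 3, then DMSO replicate 3 with 18 and AML874 replicate 1 with 14, and with library totals alone 7 rose and 3 fell, so no direction is given for this family.

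**Figure D4:**
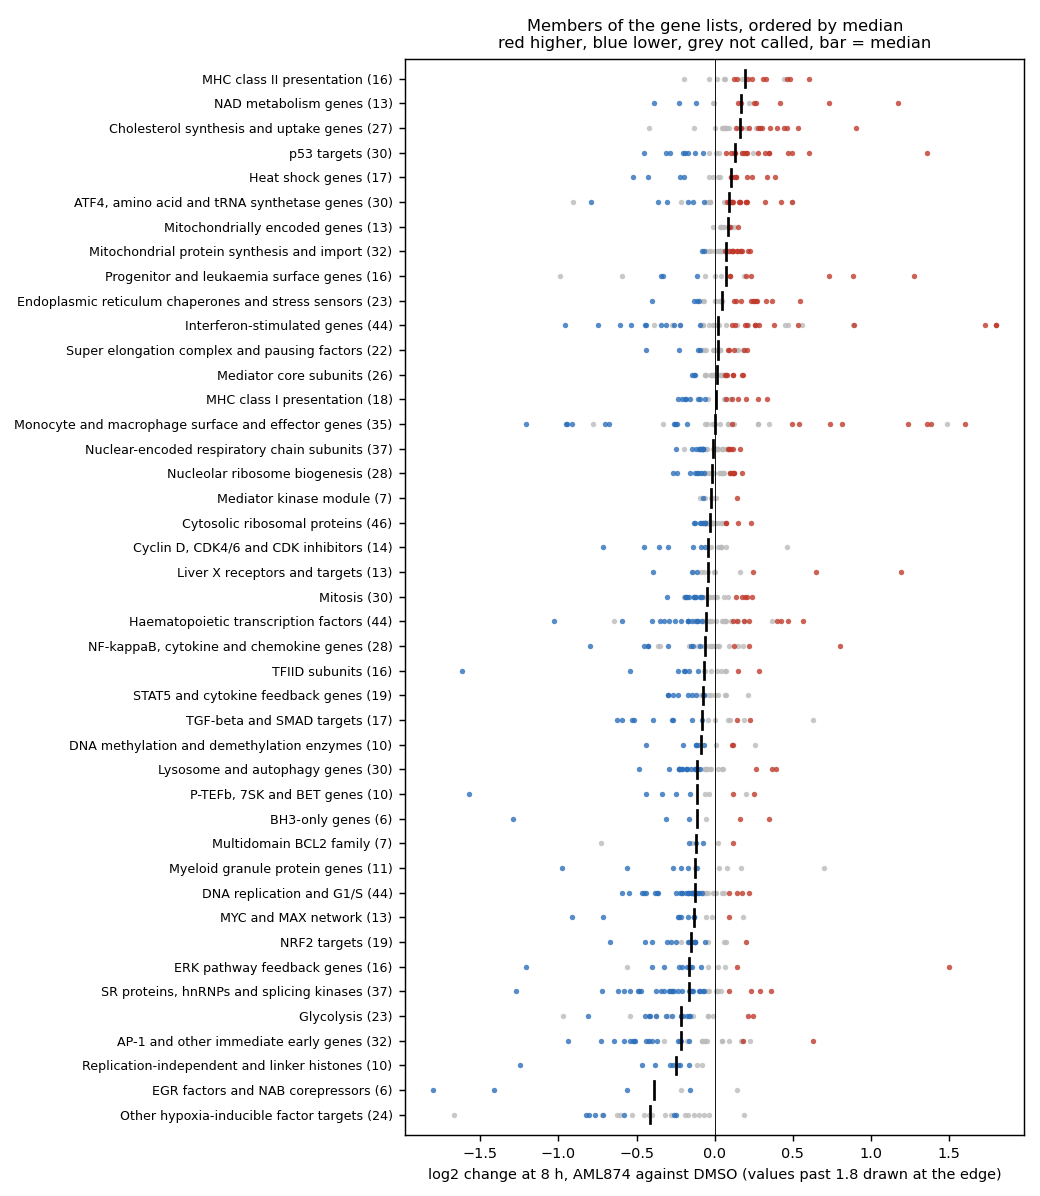
Log2 change of each tested member of 43 gene lists (1 point per gene, red higher, blue lower, grey not called), with a black bar at the median and the number of members tested in brackets. The hypoxia, EGR, histone and immediate early lists have the lowest medians and MHC class II presentation the highest, and medians within 0.05 of 0, such as those of ribosomal proteins, the kinase module and liver X receptor genes, change sign with the scaling or with 1 library.

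Several of the largest changes fell outside the lists. DNHD1, a dynein heavy chain domain gene, was at 15.1, 14.7 and 15.7 CPM with DMSO and 41.1, 43.3 and 41.0 CPM with AML874. GREB1, known as an oestrogen-induced gene, was at 7.40, 6.63 and 6.52 CPM with DMSO and 17.3, 17.8 and 17.0 CPM with AML874. Both rose in every AML874 library, by 1.46 ± 0.067 and 1.35 ± 0.051. SYTL2, a vesicle trafficking gene, rose by 1.34 ± 0.077, ZP3 by 1.27 ± 0.084, the phagocytic receptor gene MEGF10 by 1.26 ± 0.052, ACTA2, an actin of smooth muscle, by 1.16 ± 0.05, FGL2 by 1.10 ± 0.087 and the complement gene C5 by 1.06 ± 0.059. Among abundant genes TPM4, a tropomyosin, was at 319, 298 and 319 CPM with DMSO and 493, 479 and 481 CPM with AML874, a rise of 0.64 ± 0.034, and CNN2, a calponin, rose by 0.56 ± 0.056. The dipeptidase gene CNDP2 rose by 0.63 ± 0.027 and PLAC8 by 0.55 ± 0.025. Among the falls OLIG1, a transcription factor known from oligodendrocytes, was at 38.7, 41.8 and 38.2 CPM with DMSO and 17.8, 17.5 and 19.4 CPM with AML874, a change of -1.12 ± 0.043. From 5.63 to 9.15 CPM with DMSO, RGL4 fell 2.46-fold, and EMILIN1, RAB15 and PPP1R27 fell by 1.24 ± 0.1, 1.18 ± 0.078 and 1.15 ± 0.077, and NANOS1 by 0.93 ± 0.065. For RAB15 unstranded counts gave -0.72.

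Noncoding transcripts moved in classes, and no test compared the classes. Of 1389 long intergenic transcripts 22.4% rose and 7.70% fell, of 1697 antisense transcripts 20.6% and 6.95%, and of 13339 protein-coding genes 22.8% and 27.2%. At 1 CPM or more the shares were 32.4% and 21.6% of 361 intergenic transcripts, 33.6% and 18.5% of 443 antisense transcripts, and 23.6% and 31.6% of 11147 protein-coding genes. Divergent transcripts, which start beside a coding gene on the other strand, rose in 39.1% of 133 at that level and fell in 15.8%. TMCC1-DT was at 17.6, 18.2 and 18.6 CPM with DMSO and 37.4, 40.9 and 39.8 CPM with AML874, a rise of 1.11 ± 0.039, and PSMG3-AS1 and RBM26-AS1 rose by 1.20 ± 0.072 and 1.12 ± 0.065. Host transcripts of small nucleolar RNAs went the other way, with 11 of 25 lower and 2 higher, against 19.9% and 19.7% of all genes tested. Zinc finger genes with ZNF names rose in 28.0% of 528 and fell in 13.1%. Of all genes at 1 to 3 CPM 23.9% rose and 15.3% fell, and at 3 to 10 CPM 28.1% and 21.7%. Neither the host transcripts nor the ZNF genes were matched for level, so no direction particular to them is claimed. Forward-strand counts were 6.48 to 6.59% of the reverse-strand counts used, so the strand was kept, but an antisense gene near an abundant gene can still hold some of its reads.

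The effect of AML874 at 8 h was set beside its effect at 24 h, against DMSO of 24 h, for the 10 largest rises and 9 of the largest falls. The difference of the 2 effects was called for 23.6% of all genes tested. Of the 19 genes 15 differed between the times, and 19 were called in the same direction at 24 h. MPEG1 went on rising, from 1.38 to 2.44, a difference of 1.06 ± 0.049 (edgeR adjusted p = 1.26e-16), with levels at 24 h from 38.1 ± 1.14 to 207 ± 6.87 CPM. RBM14 fell by less at 24 h, -0.28 against -1.27, a difference of 0.99 ± 0.049, and BMF likewise, -0.41 against -1.29, a difference of 0.89 ± 0.11. GREB1 and DNHD1 had smaller rises at 24 h, with differences of -0.95 ± 0.071 and -0.83 ± 0.093. EGR1 was at -2.87, and the difference of 0.94 ± 0.33 did not pass the test (edgeR adjusted p = 0.0569), but passed in 6 of the alternatives, among them DESeq2 (adjusted p = 0.0147), limma-voom (0.0264) and edgeR without DMSO replicate 1 or 2 of 8 h (0.0402 and 0.0355). Since these genes were chosen as the largest at 8 h, a smaller effect at the other time is in part built into the choice. Among the 19 genes every fall that differed between the times was smaller at 24 h. Outside these 19, MPO and CLEC5A fell further by 24 h, with differences of -1.89 ± 0.091 and -1.06 ± 0.18. They are single examples, and the differences of the other falls outside the 19 are not given.

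SEL120-34A at 8 h shares its DMSO libraries with AML874, so the changes against DMSO are given side by side and only the direct difference between the compounds is tested. Doses are not in the labels, and the difference is one between these treatments as given. It was called for 31.2% of all genes tested. On the first axis of variation within groups the SEL120-34A libraries of 8 h lay at -1.28, 4.83 and -3.55, about as widely spread as the DMSO libraries. The 19 genes were chosen for large changes with AML874 at 8 h, and the same AML874 libraries enter this difference. A larger effect with AML874 is therefore in part built into the choice. Of the 19 genes 13 differed between the compounds, and 5 of these, DNHD1, GREB1, MEGF10, RAB15 and ZP3, lost that call when 1 of several libraries was left out (edgeR adjusted p from 0.0535 to 0.0941): for DNHD1 and RAB15 replicate 1 or 3 of either compound, for GREB1 AML874 replicate 2 or SEL120-34A replicate 1, for MEGF10 AML874 replicate 2 and for ZP3 SEL120-34A replicate 3. HEXIM1 was at 34.8 ± 0.703 CPM with SEL120-34A, a change of -0.80 against -1.57 with AML874, and the compounds differed by -0.78 ± 0.038 (edgeR adjusted p = 4.82e-17). BMF was at 28.8 ± 3.25 CPM with SEL120-34A, and the difference was -0.72 ± 0.083. RBM14 went the other way, at 50.1 ± 1.47 CPM with SEL120-34A and 65.6 ± 3.92 with AML874, a difference of 0.39 ± 0.036. MS4A6A and MPEG1 were higher with AML874 by 0.39 ± 0.027 and 0.32 ± 0.034. For MS4A4A the difference of -0.072 ± 0.035 and for EGR1 that of -0.75 ± 0.28 did not pass the test (edgeR adjusted p = 0.125 and 0.0611), which does not show that the compounds act alike. The difference in EGR1 passed with DESeq2 (adjusted p = 0.00389), with edgeR after the filter of 1 CPM (0.043) and in a fit of only the groups compared (1.96e-06), and that in MS4A4A with library totals alone (0.0491).

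**Figure D5:**
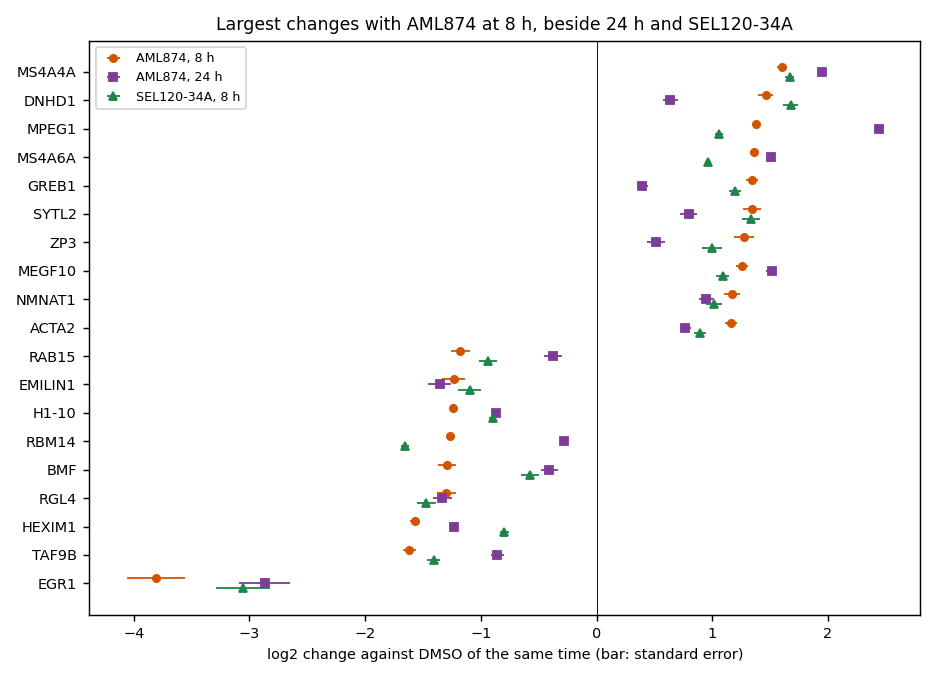
Log2 change against DMSO of the same time, with bars for the SE, for 19 genes with the largest changes at 8 h: AML874 at 8 h (orange circles), AML874 at 24 h (purple squares) and SEL120-34A at 8 h (green triangles). All points of a gene lie on the same side of 0, MPEG1 is further out at 24 h, and RBM14 is closest to 0 at 24 h and furthest out with SEL120-34A.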

How the data were processed

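Polyadenylated RNA of OCI-AML1 cells was sequenced. Per the labels there were 6 groups of 3 libraries. Reads were aligned to GRCh38 with STAR 2.7.1a, and RSEM 1.3.2 was run, per the submitters' processing notes; the annotation release is not given in the sources used here. The authors deposited raw read counts per gene, of which the reverse-strand column was used, and RSEM expected counts, which were rounded and used as an alternative. Reads with several alignments are not in these counts, and the summary lines of the deposited files, 21.9 to 24.7% of the reads of the 6 libraries compared here, were left out. TPM and FPKM values were not used.

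Of 60609 gene identifiers 60295 had a symbol and 58502 were in GENCODE 29, which gave positions and types. Genes were filtered with filterByExpr, which removed 0.0163% of the counts, and scaled with TMM. One model over all 18 libraries (12 residual degrees of freedom) was fitted in R 4.3.3 with edgeR 4.0.16, using robust quasi-likelihood, and a call needed an adjusted p (Benjamini-Hochberg) under 0.05. Scripts were tested on simulated data. Alternatives were DESeq2 1.42.0, limma-voom (limma 3.58.1), other scalings and filters, a replicate block, only the groups compared, unstranded or RSEM counts, and leaving out each library.

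Named genes had groups that did not overlap and at least 5 CPM in the higher group: the 20 largest changes each way among protein-coding genes, the 10 largest each way at 100 CPM or more and the 5 largest each way among other genes. From each of 49 gene lists up to 6 members by p were named, with all genes of the BCL2 family and of the Mediator kinase module, and MYC. A few of the genes named by this rule, and a few list members, are left out of the text and of the plot of all changes. Further list members are named as examples. The comparison and the lists were chosen with earlier results of these data known. Promoter windows are from RefSeq, and motifs were searched only in the 250 bases before the start.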

Additional observations from a re-analysis of the deposited data

Results flagged for a closer look

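For 15 of the 19 genes with the largest changes at 8 h, the effect of AML874 at 24 h differed from its effect at 8 h in edgeR's test of that difference, which called 23.6% of all genes. On the log2 scale, as the effect at 24 h minus that at 8 h, the rises that grew were MPEG1 by 1.06, MS4A4A by 0.35, MEGF10 by 0.25 and MS4A6A by 0.15. The rises that shrank had differences of -0.95 for GREB1, -0.83 for DNHD1, -0.76 for ZP3, -0.55 for SYTL2 and -0.40 for ACTA2. The falls that shrank had differences of 0.99 for RBM14, 0.89 for BMF, 0.80 for RAB15, 0.76 for TAF9B, 0.37 for H1-10 and 0.34 for HEXIM1. The difference for MS4A6A was not called with library totals alone (0.11), nor that for TAF9B with unstranded counts (0.16).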

How the results depend on the processing

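The number of genes called, 8287, lay between 7442 and 8416 in all alternatives run, and between 7477 and 7778 with 1 library left out. DESeq2 called 8303, limma-voom 8198 and RSEM counts 8207. With a filter of 1 CPM in 3 libraries 168 genes rose and 32 fell by at least 2-fold, since that filter leaves out weak genes, where most such changes lie. Of 297 named genes that were called, 271 kept their direction and call in all 16 alternatives, 0 reversed and 26 lost the call at least once, in 59 of 4750 comparisons. The replicate block gave 8154 calls. Replicate numbers did not pair the libraries: deviations of same-numbered libraries correlated at 0.0396, 0.0166 and -0.0825, and 2 of 6 libraries correlated best with their own number. Among the named genes the block ended the calls of MED13 (edgeR adjusted p = 0.0524) and ANKRD37 (0.0636) and added one for MT-CO2 (0.0413), which had none before.

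Genes without a call changed sign, as values near 0 can, and the cause was not tested. Leaving out 1 library gave log2 changes from -0.69 to 0.10 for EGR3, -0.019 to 0.0043 for CDK8, -0.33 to 0.053 for BCL2L2, -0.050 to 0.11 for CD247, -0.095 to 0.078 for ITGA2B, -0.14 to 0.61 for PDGFRB, -0.056 to 0.032 for CDK19 and -0.031 to 0.046 for BAK1. Differences between AML874 and SEL120-34A ranged from -0.034 to 0.032 for SYTL2, and differences between times from -0.10 to 0.041 for RGL4. RSEM counts gave -0.090 for ITGA2B, 0.0021 for CDK19, -0.011 for SYTL2 and 0.017 for RGL4. Library totals alone gave 0.024 for MED12, 0.035 for CDK19 and -0.015 for SYTL2. Unstranded counts gave -0.036 for TUBB1, 0.028 for RGL4 and, between the compounds, 0.14 for EMILIN1. With limma-voom EGR3 was at 0.013 and ITGA2B at -0.0026, and with the filter of 1 CPM SYTL2 was at -0.0024. Genes under 1 CPM rest on few counts, and their changes have the widest errors.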

Other observations

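The remaining genes among the largest changes at 8 h are given here as values. Among the rises SEC31B, a paralogue of a COPII coat gene, was at 19.7, 21.1 and 20.1 CPM with DMSO and 39.3, 44.8 and 46.3 CPM with AML874, a rise of 1.09 ± 0.082. CYP4V2, a fatty acid hydroxylase gene, rose by 1.04 ± 0.058, APOLD1 by 1.03 ± 0.097, TTLL1, which adds glutamate to tubulin, by 0.97 ± 0.071, COL23A1, a transmembrane collagen gene, by 0.91 ± 0.041, RWDD2B by 0.92 ± 0.039 and TRIM66 by 0.91 ± 0.044. CCAR1, a coactivator gene, rose by 0.46 ± 0.025 from 171 ± 1.34 CPM. Among the falls ADI1, an enzyme gene of the methionine salvage pathway, was at 134, 138 and 129 CPM with DMSO and 74.9, 73.2 and 79.0 CPM with AML874, a change of -0.82 ± 0.033, and LRRC4 and ZNF784 fell by 0.65 ± 0.033 and 0.95 ± 0.086. In each of these genes the libraries of the 2 treatments did not overlap. Of the noncoding genes FAM86C2P rose by 1.07 ± 0.08, and LINC03053 and the pseudogene NCF1B fell by 1.01 ± 0.079 and 0.97 ± 0.078. NCF1, the functional relative of NCF1B and a subunit of the phagocyte oxidase, fell by 0.70 ± 0.057, and reads cannot be divided with certainty between these near-identical copies.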
